A study of Mus musculus with 9 samples.

Results

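The genes described here encode the proteins of the mitochondrial ribosome. They were chosen by name: every row of the count table whose Ensembl gene ID maps, in the GENCODE M21 annotation, to a protein-coding symbol that starts with Mrpl or Mrps. The rule found 78 genes among the 21253 of the table, 49 with an Mrpl symbol and 29 with an Mrps symbol, and the annotation lists no further ones. A filter on low counts kept 77 of the 78, and these 77 were tested.

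As background, mitochondria keep a small genome that codes for core subunits of the respiratory chain, and a ribosome of their own translates those messages. The ribosomal RNAs come from the mitochondrial genome, while every protein of the large and the small subunit is encoded in the nucleus, made in the cytosol and imported. Part of these proteins have counterparts in bacterial ribosomes and part occur only in mitochondria. Doxycycline, which binds bacterial ribosomes, is also known to inhibit mitochondrial translation.

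The data are poly(A) RNA-seq profiles of AKP mouse tumour organoids (tumoroids), 9 samples in all, which carry a doxycycline-dependent short hairpin RNA against Apc (labelled shAPC). The control group, 3 samples, was kept in doxycycline with Apc off; the other groups, 3 samples each, had doxycycline withdrawn for 2 days or for 7 days so that Apc was restored. The labels name 1 organoid line and describe the replicates as technical; the p-values therefore reflect the spread among these samples and nothing wider. The control samples serve both comparisons, and the loss of doxycycline, the return of Apc and the time in culture cannot be told apart.

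Library totals ran from 24143589 to 32277040 counts. Levels are given as CPM, counts relative to library size with scaling between libraries by the TMM method. Apc itself ranged from 6.80 to 8.84 CPM in controls, rose to a range of 24.8 to 38.1 CPM by 2 days (log2 fold change 2.08 ± 0.17, edgeR adjusted p = 3.1e-07) and reached 67.9 to 92.9 CPM by 7 days (3.36 ± 0.17, edgeR adjusted p = 6.2e-11), as the labels say. Epithelial markers were abundant, summing to 9383 to 12400 CPM in controls and to 26070 to 35610 CPM at 7 days, with only Cdx1 of 8 under 1 CPM in every group. Of 8 fibroblast, 8 leukocyte and 5 endothelial markers, 7, 8 and 4 were under 1 CPM in every group, with the fibroblast marker Lum at 0 counts. The fibroblast sum was 16.9 to 19.9 CPM in controls and 1.60 to 2.05 CPM at 7 days, with Vim at 17.8 CPM in controls and 0.988 CPM at 7 days. Of its 3 tested markers Vim and Col1a2 fell and Pdgfrb rose, to 0.504 CPM. The leukocyte sum was 0.142 to 0.309 CPM in controls and 1.14 to 1.43 CPM at 7 days, and its 1 tested marker, Csf1r, rose from 0.0247 to 0.956 CPM on average. The part of these shifts in the results below was not tested. In bulk RNA, fewer cells of a type and less RNA per cell cannot be told apart.

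The promoters of these genes are shown first because the members mostly moved together at 7 days. RefSeq windows of 300 bases (250 before to 50 after the gene start, GRCm38.p6) were found for 69 of the 78 members. Each was searched on both strands for the core site of NRF1 (nuclear respiratory factor 1, here by its name) and for the letters CCGGAAG (sites of ETS factors such as GABP), AAGATGGC (YY1), CACGTG (the E-box bound by Myc and others) and CTTTGAT (TCF/LEF, the Wnt effectors). The 100 bases before the start are printed for the member that fell most (Mrps27), for a highly expressed stalk protein (Mrpl12), for one of the few that rose (Mrps21) and for a member that fell with none of the motifs in this stretch (Mrps30). All read 5′ to 3′ on the gene's strand, and capitals mark the motif on either strand.
Mrps27: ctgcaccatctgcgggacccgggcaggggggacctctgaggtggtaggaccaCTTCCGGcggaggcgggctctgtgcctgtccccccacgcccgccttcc
Mrpl12: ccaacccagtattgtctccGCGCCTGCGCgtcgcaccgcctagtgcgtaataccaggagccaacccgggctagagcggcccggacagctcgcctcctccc
Mrps21: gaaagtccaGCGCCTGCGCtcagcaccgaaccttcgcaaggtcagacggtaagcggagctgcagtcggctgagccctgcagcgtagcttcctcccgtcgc
Mrps30: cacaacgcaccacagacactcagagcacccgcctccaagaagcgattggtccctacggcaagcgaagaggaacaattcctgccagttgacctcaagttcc

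These stretches are chr13:99344686-99344785 (plus strand) for Mrps27, chr11:120484537-120484636 (plus) for Mrpl12, chr3:95871515-95871614 (minus) for Mrps21 and chr13:118387253-118387352 (minus) for Mrps30. The capitals in Mrps27 are the ETS letters read on the opposite strand, and those in Mrpl12 and Mrps21 are the same 10-base NRF1 match. In the full windows Mrps27 also held the YY1 letters and Mrps21 the ETS letters, while Mrpl12 held the NRF1 core alone. At 7 days the RNA of Mrpl12 fell and that of Mrps21 rose with TMM scaling. The log2 fold change of Mrps21 turned to -0.07 with library size alone. It was also -0.07 once trends with GC content and length were removed. A link between motif and direction was not tested. The ETS letters occurred in 25 of the 69 member promoters (36.2%) against 18.8% of 9838 promoters of tested genes. The NRF1 core occurred in 13 (18.8%) against 10.4%, and the YY1 letters in 12 (17.4%) against 4.8%. At least 1 of these 3 motifs was present in 42 of 69 (60.9%) against 30.2% of all. The E-box was found in 5 (7.2%) against 10.1%, and the TCF/LEF letters in 0 of 69 against 2.4%. No 2 different motifs overlapped in a member promoter. A match is a description of letters, not a bound site, and a missing match says only that these letters are not in the window.

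Read per length (RPKM, CPM divided by the principal transcript's length in kilobases), the 77 tested members spanned 5.94 to 138 in controls, with a median of 35.9. Mrpl52, a mitochondria-specific protein of the large subunit, stood highest in controls with 138 ± 3.41 RPKM (SD, n = 3), followed by Mrpl12 with 135 ± 8.01 RPKM, a level that did not differ from it beyond this spread. Mrpl20, a large subunit protein with a bacterial counterpart, came next with 123 ± 8.20 RPKM. The lowest were Mrpl47 with 5.94 ± 0.764, Mrps25 with 7.42 ± 0.174 and Mrps17 with 8.64 ± 0.450 RPKM, and other genes cover 24.2% of the exons of Mrpl47 and 69.8% of those of Mrps25. Ranks depend on the transcript used: over all annotated exons Mrpl12 was first, Mrpl20 the seventh and Mrpl52 the ninth.

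At 7 days the median level over the tested members was 22.01 RPKM, against 34.1 at 2 days. The order of the members was largely the same in controls and at 7 days (Spearman's rho 0.928 across 77 genes that share libraries and lengths; a description). Of the 10 highest members in controls, 9 were among the 10 highest at 7 days. The member that left was Mrps18a, from the eighth place in controls to the fifteenth at 7 days. Mrps21 moved from the seventh place, 98.4 ± 2.69 RPKM, to the first, 123 ± 8.90 RPKM. Mrpl53, a large subunit protein, was the untested member, with 8, 5 and 2 counts summed over the control, 2-day and 7-day groups; other protein-coding genes cover 88% of its exons.

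After 2 days few mitochondrial ribosomal protein genes passed the test with TMM scaling. In edgeR's quasi-likelihood test (two-sided, Benjamini-Hochberg adjustment over all 12535 genes tested, calls at an adjusted p under 0.05) 1 of 77 members rose (Mrpl17) and 3 fell (Mrps27, Mrpl3 and Mrpl44). Of all genes, 23.7% were called, 13.1% higher and 10.6% lower. The members' log2 fold changes lay between -0.29 and 0.27 with a median of -0.07, beside -0.00 for all genes tested, and 53 of 77 were below 0. None fell by 2-fold (0 of 77, against 1.68% of all genes). The members lower numbered 23 once trends with GC content and length were removed, when 2297 of all genes were lower instead of 1333, and 0 without control 1 or without control 2. All 2-day samples were below all controls for 15 members, against 19.4% of all genes, and above them for 3, against 19.9%.

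Mrpl17, which sits near the polypeptide exit of the large subunit (ENSMUSG00000030879, chr7:105803206-105811099, minus strand, GRCm38), measured 71.0, 67.3 and 63.4 CPM in controls and 87.1, 74.4 and 82.2 CPM at 2 days. The groups did not overlap, and the log2 fold change was 0.27 ± 0.09 (SE; edgeR adjusted p = 0.033). At 7 days it read 58.7, 58.1 and 49.9 CPM, below every control, with a log2 fold change of -0.28 ± 0.09 (edgeR adjusted p = 0.0093). It was the 1 member called in opposite directions at the 2 times, but both calls ended once trends with GC content and length were removed (0.30, edgeR adjusted p = 0.056, at 2 days and -0.11, edgeR adjusted p = 0.39, at 7 days).

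Mrpl3, a protein near the peptidyl transferase centre (ENSMUSG00000032563, chr9:105053239-105079888, plus strand), fell from 154, 154 and 149 CPM in controls to 131.5, 121 and 131.1 CPM at 2 days (log2 fold change -0.25 ± 0.07, edgeR adjusted p = 0.016). Mrpl44, a mitochondria-specific large subunit protein with a ribonuclease III-like fold (ENSMUSG00000026248, chr1:79776018-79781445, plus strand), fell from 43.5, 41.9 and 37.7 CPM to 34.7, 32.5 and 33.7 CPM (-0.29 ± 0.08, edgeR adjusted p = 0.016). Neither gene's 2-day samples overlapped the controls, and both were lower again at 7 days, Mrpl3 at 74.1, 75.3 and 76.6 CPM and Mrpl44 at 22.1, 22.1 and 21.6 CPM. Each of the 4 calls at 2 days was lost when certain single samples were left out: Mrpl3 and Mrpl44 without control 1 or control 2 (adjusted p 0.065 to 0.086), Mrps27 without control 1, control 2, 2-day sample 2 or 2-day sample 3 (0.067 to 0.12), and Mrpl17 without control 2, control 3, 2-day sample 1 or 2-day sample 3 (0.082 to 0.16).

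After 7 days most of the genes had fallen. Of 77 members 66 were lower than in controls (85.7%), 3 were higher and 8 were not called. At this time 82.3% of all genes tested were called, 41.8% lower and 40.5% higher. The members' median log2 fold change was -0.61, beside -0.03 for all genes, with its quartiles at -0.91 and -0.35. All 7-day samples were below all controls for 65 members (41.8% of all genes), and above them for 3 (40.5%). The falls were moderate in size: 43 members fell by at least 1.5-fold, beside 3822 of the 12535 genes tested. By at least 2-fold 11 members fell, a size of fall that 19.6% of all genes reached. Summed over the members, the level was 4579, 4495 and 4344 CPM for the controls, then 4360, 3947 and 4485 CPM for the 2-day samples, and 3031, 3064 and 2835 CPM for the 7-day samples.

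The scaling between libraries matters at 7 days because so many genes moved. With library size alone the median of all genes shifted to -0.43 and the calls in the whole table split into 3675 higher and 6876 lower instead of 5080 and 5237; the members then had 75 lower and 0 higher with a median of -1.01. With upper-quartile factors the median of all genes was -0.13, and 69 members were lower and 1 higher. Over all 17 settings run for this comparison (the one reported, its alternatives and the leave-one-out fits), 57 members were called lower in every one and 70 had a log2 fold change below 0 in every one. The matching counts over all genes were not made, so these say only how steady the members' calls were.

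**Figure D1:**
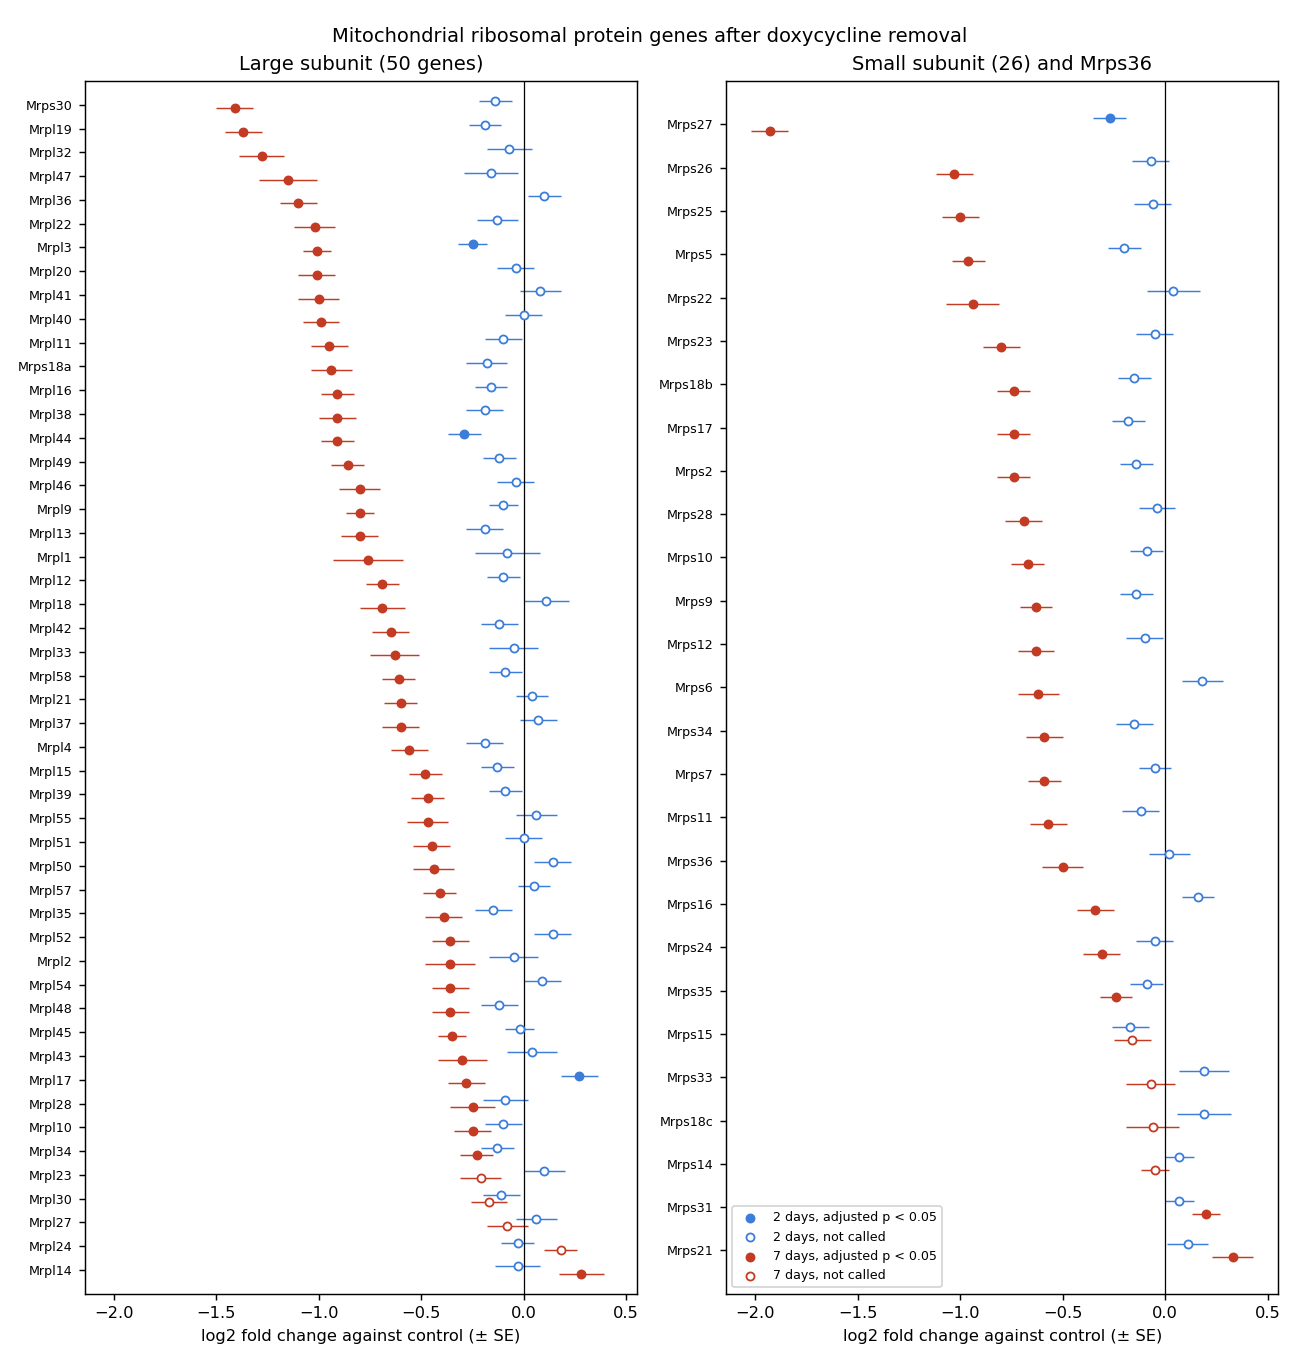
Log2 fold change against control (x axis, ± SE) of each tested member, large subunit on the left, small subunit and Mrps36 on the right, ordered by the 7-day value. Blue is 2 days, red is 7 days, and filled points passed the test. The 7-day points run from -1.93 to 0.33, while the 2-day points stay between -0.29 and 0.27. The 3 members to the right of 0 that passed at 7 days (Mrps21, Mrps31, Mrpl14) fall to the left with library size alone.

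In the small subunit 20 of 26 members fell at 7 days (41.8% of all genes) and 2 rose (40.5%), with a median log2 fold change of -0.63. Mrps27, a pentatricopeptide repeat protein found only in mitochondria (ENSMUSG00000041632, chr13:99344786-99415562, plus strand), read 78.2, 78.0 and 69.9 CPM in controls; after 2 days it read 67.3, 61.4 and 58.9 CPM, and after 7 days 21.2, 18.9 and 19.2 CPM. The 3 groups did not overlap, and the 7-day level was 3.81-fold lower than in controls (log2 fold change -1.93 ± 0.09, edgeR adjusted p = 1.7e-11), the deepest fall of any member tested. Already at 2 days it was lower by -0.27 ± 0.08 on the log2 scale (edgeR adjusted p = 0.026).

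Mrps12, the decoding-centre protein whose bacterial counterpart carries streptomycin resistance changes (ENSMUSG00000045948, chr7:28739641-28741820, minus strand), read 33.9, 32.4 and 30.0 CPM in controls; after 2 days it read 30.5, 28.2 and 31.1 CPM, and after 7 days 21.6, 22.3 and 18.2 CPM. Its 7-day samples lay below all others (log2 fold change -0.63 ± 0.09, edgeR adjusted p = 1.6e-05), close to the median of its subunit. Mrps7, a protein of the head, fell from 110 ± 8.75 CPM (SD, n = 3) in controls to 72.9 ± 2.17 CPM at 7 days (-0.59 ± 0.08, edgeR adjusted p = 9.1e-06). Mrps14, whose bacterial counterpart also sits in the head, measured 61.3 ± 1.15 CPM in controls and 59.1 ± 0.306 CPM at 7 days and did not pass (-0.05 ± 0.07, edgeR adjusted p = 0.52).

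By origin, 12 of 16 small subunit proteins listed with a bacterial counterpart fell (41.8% of all genes) and 1 rose (40.5%), median -0.61. Of the 10 listed as mitochondria-specific 8 fell and 1 rose (median -0.77). The latter list holds Mrps18b, although the gene is related to bacterial S18. Mrps36 was counted with neither subunit, since its product is known as a component of the 2-oxoglutarate dehydrogenase complex; it fell from 30.5 ± 1.20 to 21.5 ± 0.422 CPM (-0.50 ± 0.10, edgeR adjusted p = 0.00022). Its 7-day samples were all below its controls.

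In the large subunit 45 of 50 tested members fell at 7 days (41.8% of all genes) and 1 rose (40.5%), with a median of -0.60. Mrps30, a large subunit protein despite its symbol (ENSMUSG00000021731, chr13:118378381-118387252, minus strand), read 52.6, 53.1 and 47.5 CPM in controls; after 2 days it read 50.2, 44.0 and 45.1 CPM, and after 7 days 19.0, 20.5 and 18.0 CPM. The 7-day samples stood apart from both other groups, 2.66-fold below controls (-1.41 ± 0.09, edgeR adjusted p = 7.2e-10). Mrpl19 (ENSMUSG00000030045, chr6:81957851-81965958, minus strand), at the interface between the subunits, read 68.0, 69.9 and 72.3 CPM in controls; after 2 days it read 62.9, 55.4 and 65.9 CPM, and after 7 days 27.6, 28.8 and 25.04 CPM (-1.37 ± 0.09, edgeR adjusted p = 8.8e-10). Its 7-day samples were below all others, and other genes cover 36% of its exons.

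Mrpl32, which mitochondrial proteases must trim before it joins the ribosome (ENSMUSG00000015672, chr13:14608184-14613165, minus strand), read 30.5, 32.1 and 36.1 CPM in controls; after 2 days it read 29.5, 28.4 and 36.3 CPM, and after 7 days 12.3, 13.7 and 14.6 CPM. Controls and 2-day samples overlapped, while the 7-day samples were lower than all of them (-1.28 ± 0.11, edgeR adjusted p = 4e-08). Mrpl36 (ENSMUSG00000021607, chr13:73328513-73332178, plus strand), a small zinc-binding protein, went from 31.2, 32.9 and 30.9 CPM in controls to 32.1, 32.4 and 37.2 CPM after 2 days, then to 15.5, 14.5 and 14.3 CPM after 7. Its fall between 2 and 7 days was -1.20 ± 0.09 on the log2 scale (edgeR adjusted p = 6.6e-09).

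Mrpl12, the stalk protein that contacts the translation factors (ENSMUSG00000039640, chr11:120484613-120489065, plus strand), read 188, 179 and 167 CPM in controls; after 2 days it read 178, 152 and 169 CPM, and after 7 days 110, 116 and 106 CPM. Only the 7-day group stood apart, 1.61-fold below controls (-0.69 ± 0.08, edgeR adjusted p = 1.4e-06). Mrpl58, a peptidyl-tRNA hydrolase that became part of the large subunit, fell from 49.1 ± 3.34 to 32.3 ± 1.51 CPM (-0.61 ± 0.08, edgeR adjusted p = 6.8e-06). The 2 subunits kept nearly the same proportion: summed CPM of the small over the large subunit was 0.425 ± 0.00639 in controls (SD, n = 3), 0.426 ± 0.00320 at 2 days and 0.439 ± 0.00521 at 7 days, with the 7-day samples (0.434 to 0.445) above the controls (0.418 to 0.430).

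Among large subunit proteins listed with a bacterial counterpart 25 of 30 fell (41.8% of all genes) and 1 rose (40.5%), median -0.61. All 20 tested that were listed as mitochondria-specific fell, by log2 fold changes from -1.41 to -0.30 (median -0.60). That list holds Mrps18a, although the gene is related to bacterial S18. Mrpl20 fell from 94.3 ± 6.26 to 46.9 ± 2.17 CPM (-1.01 ± 0.09, edgeR adjusted p = 4.4e-08), Mrpl47 from 19.97 ± 2.57 to 8.96 ± 1.58 CPM (-1.15 ± 0.14, edgeR adjusted p = 2.4e-06), and Mrpl52 from 57.5 ± 1.43 to 44.7 ± 3.92 CPM (-0.36 ± 0.09, edgeR adjusted p = 0.0016). In each of these 3 genes all 7-day samples were below all controls.

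The 3 genes related to bacterial S18 differed in how far they moved. Mrps18a, whose product lies in the large subunit, read 88.6, 78.9 and 75.5 CPM in controls and 45.4, 44.3 and 36.6 CPM at 7 days (-0.94 ± 0.10, edgeR adjusted p = 4.6e-07). Mrps18b, in the small subunit, read 41.3, 39.6 and 38.0 CPM and then 25.6, 23.1 and 22.5 CPM (-0.74 ± 0.08, edgeR adjusted p = 6.8e-07). Mrps18c, also in the small subunit, read 13.7, 12.3 and 15.1 CPM in controls and 11.5, 14.0 and 13.6 CPM at 7 days, with overlapping groups (-0.06 ± 0.13, edgeR adjusted p = 0.67). The differences between the 3 genes were not tested, and with library size alone Mrps18c was called lower too (-0.46, edgeR adjusted p = 0.011).

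**Figure D2:**
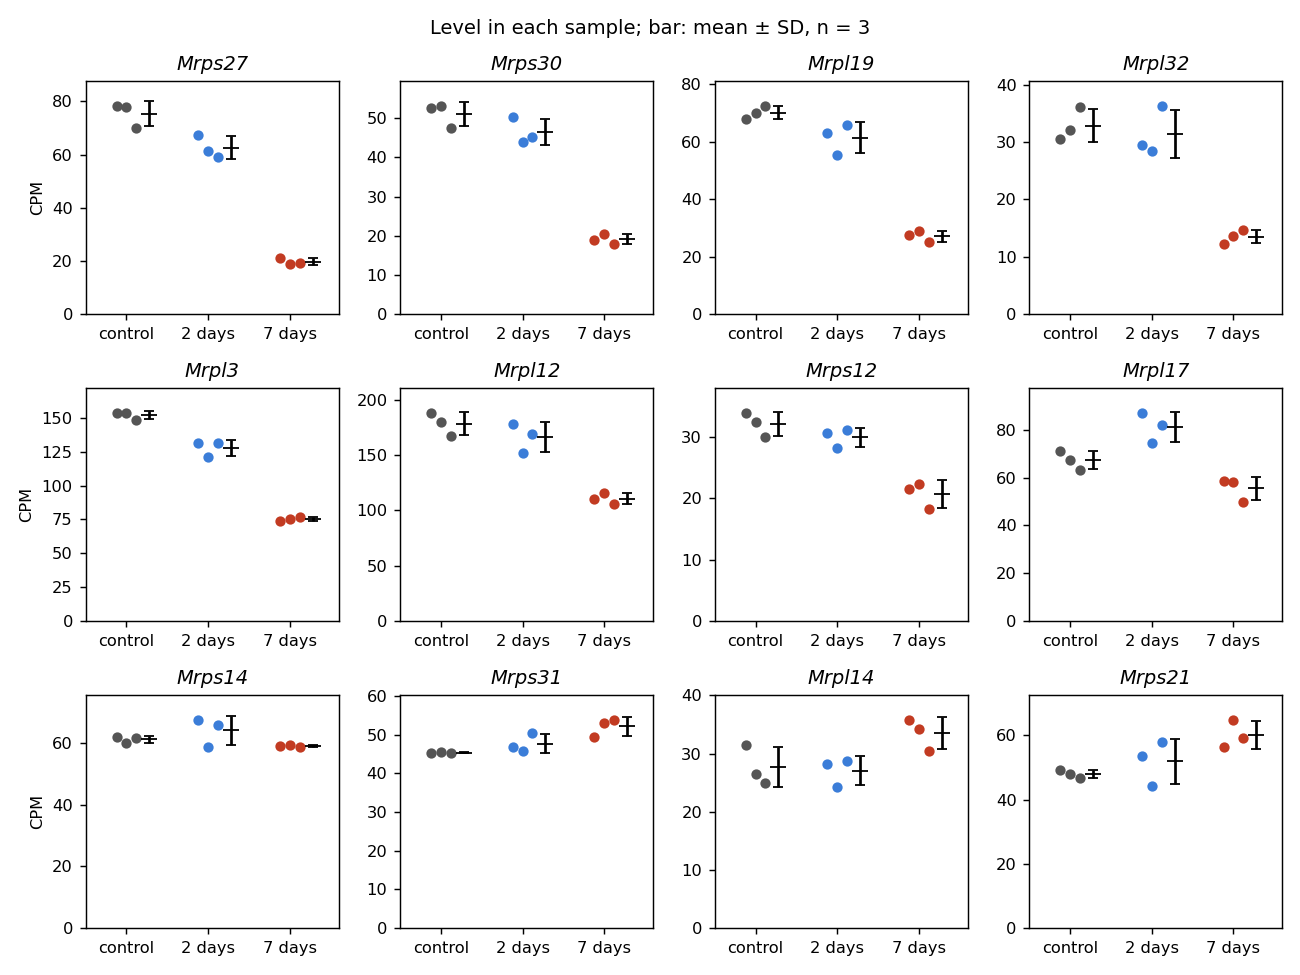
Level in CPM (y axis, from 0) of 12 members in each sample, with the mean ± SD of the 3 samples beside the points. In Mrps27, Mrps30, Mrpl19 and Mrpl32 the 7-day points lie far below the rest, in Mrps14 the groups lie close together, and in Mrps31 and Mrps21 the 7-day points lie above the controls with TMM scaling (with library size alone their fold changes are below 0).

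The 3 members that rose at 7 days did so by little, and the direction of all 3 depended on the scaling. Mrps21, a small subunit protein with a bacterial counterpart (ENSMUSG00000054312, chr3:95862634-95871519, minus strand), read 49.3, 48.1 and 46.7 CPM in controls; after 2 days it read 53.7, 44.2 and 57.8 CPM, and after 7 days 56.3, 64.9 and 59.3 CPM (0.33 ± 0.10, edgeR adjusted p = 0.0056), and turned to -0.07 with library size alone and to -0.07 once trends with GC content and length were removed. Mrps31, a mitochondria-specific protein of the small subunit's head (ENSMUSG00000031533, chr8:22411361-22429665, plus strand), read 45.4, 45.5 and 45.3 CPM in controls and 49.5, 53.0 and 53.9 CPM at 7 days (0.20 ± 0.07, edgeR adjusted p = 0.021), and turned to -0.20 with library size alone. Mrpl14, at the face where the subunits meet (ENSMUSG00000023939, chr17:45686322-45698495, plus strand), read 31.6, 26.6 and 24.9 CPM in controls and 35.8, 34.3 and 30.5 CPM at 7 days, with 1 control above the lowest 7-day sample (0.28 ± 0.11, edgeR adjusted p = 0.024), and turned to -0.13 with library size alone.

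The calls of Mrps31 and Mrpl14 also rested on single samples. Mrps31 lost its call without control 1, control 2, 7-day sample 2 or 7-day sample 3 (adjusted p 0.054 to 0.063) and with upper-quartile factors (0.24), and Mrpl14 without control 2, control 3, 7-day sample 1 or 7-day sample 2 (0.064 to 0.10) and with upper-quartile factors (0.13). Not called at 7 days were Mrpl23, Mrpl24, Mrpl27, Mrpl30, Mrps14, Mrps15, Mrps18c and Mrps33. Mrpl24, near the exit tunnel, measured 42.7, 42.6 and 38.5 CPM in controls and 49.0, 46.7 and 44.5 CPM at 7 days, a difference of 0.18 ± 0.08 on the log2 scale that missed the threshold (edgeR adjusted p = 0.058). Other protein-coding genes cover 11.2% of the exons of Mrpl14 and 26.3% of those of Mrpl24.

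Between 2 and 7 days 63 of 77 members fell and 2 rose, Mrpl14 and Mrpl24, with a median of -0.55 beside -0.03 for all genes. Of all genes, 79.1% were called between these groups, 39.9% lower and 39.2% higher. Of the 66 members lower at 7 days than in controls, 62 were not called at 2 days. Over all genes 10.6% were lower than in controls at 2 days and 41.8% at 7 days. How many genes were lower only at 7 days was not counted over all genes. The 7-day samples were all below the 2-day samples for 60 members, against 40.2% of all genes, and 6 members fell by at least 2-fold, against 16.2% of all genes. Mrpl24 rose by 0.21 ± 0.08 on the log2 scale (edgeR adjusted p = 0.032), and turned to -0.21 with library size alone. Part of the exons of Mrpl14 and of Mrpl24 is covered by other protein-coding genes.

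The other genes of mitochondrial translation were read from fixed lists. Of 5 subunit proteins with other names 3 fell at 7 days, against 41.8% of all genes. Ptcd3, at the entry of the messenger RNA, fell from 98.0 ± 8.78 to 43.3 ± 5.29 CPM (-1.18 ± 0.10, edgeR adjusted p = 1.5e-08), Chchd1 by -0.98 ± 0.09 (9.3e-08) and Gadd45gip1 by -0.90 ± 0.09 (2.8e-07). Dap3, a GTP-binding protein of the small subunit, measured 135 ± 7.95 CPM in controls and 122 ± 9.12 CPM at 7 days, and Aurkaip1 86.7 ± 1.62 and 85.1 ± 4.15 CPM; neither passed (edgeR adjusted p = 0.11 and 0.77).

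Of 25 assembly factors 21 fell at 7 days (41.8% of all genes) and 1 rose (40.5%), with a median of -0.76. Noa1, a GTPase of small subunit assembly, read 88.7 ± 3.31 CPM in controls, 67.1 CPM on average at 2 days and 24.3 ± 0.815 CPM at 7 days (-1.87 ± 0.07, edgeR adjusted p = 3.3e-12). It was among the 5 assembly factors lower already at 2 days (-0.40, edgeR adjusted p = 0.00054), against 10.6% of all genes. That count of 5 became 13 once trends with GC content and length were removed. It was 2 without control 1, control 2 or 2-day sample 1, 3 without 2-day sample 3 and 3 with no filter. Mrm3, which methylates the large ribosomal RNA, fell by -1.92 ± 0.10 at 7 days (edgeR adjusted p = 7.4e-11), Fastkd2, which binds that RNA, by -1.88 ± 0.12 (6.5e-10), and Rcc1l by -1.66 ± 0.10 (3.1e-10). The 1 that rose was Mpv17l2, from 33.3 ± 4.14 to 57.0 ± 8.35 CPM (0.77 ± 0.11, edgeR adjusted p = 9.1e-06), named here after its value was seen.

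Of 12 translation factors 10 fell at 7 days (41.8% of all genes) and 0 rose (40.5%), with a median of -0.65. By DESeq2, by limma-voom or at an unadjusted p under 0.05 in edgeR 0 rose either. The elongation factors Tsfm (-1.23 ± 0.09, edgeR adjusted p = 3e-09) and Gfm1 (-0.84 ± 0.07, 2.1e-08) were among the 10 that fell, as was the back-translocase Guf1 (-1.57 ± 0.15, 1.4e-07). Of 20 mitochondrial aminoacyl-tRNA synthetases 14 fell and 3 rose (median -0.66; 17 and 1 with library size alone), with Yars2 from 45.3 ± 5.52 to 12.8 ± 1.61 CPM (-1.82 ± 0.11, edgeR adjusted p = 6.5e-10). Of 13 genes of mitochondrial DNA upkeep and transcription 10 fell and 1 rose (median -0.80). Lrpprc, which stabilises mitochondrial messengers, fell from 119 ± 5.21 to 54.1 ± 2.03 CPM (-1.13 ± 0.08, edgeR adjusted p = 2.3e-09).

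The RNAs that this ribosome translates, and their nuclear partners, moved the other way. Of the 13 messenger RNAs of the mitochondrial genome 12 rose at 7 days (40.5% of all genes), with a median of 1.00. The RNA of mt-Nd4, a complex I subunit, went from 447 ± 105 to 1669 ± 274 CPM (1.90 ± 0.17, edgeR adjusted p = 4.1e-08). That of mt-Co1, the catalytic subunit of cytochrome oxidase, went from 2127 ± 523 to 7131 ± 1101 CPM (1.75 ± 0.18, edgeR adjusted p = 2.4e-07). With library size alone 9 rose and the median was 0.60. mt-Nd3 did not pass (0.05 ± 0.15, edgeR adjusted p = 0.79). Poly(A) selection was used, and how well it captured each of these messengers was not measured.

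Of 77 tested nuclear genes of the respiratory chain 61 rose at 7 days (40.5% of all genes) and 3 fell (41.8%), with a median of 0.62. The counts were 36 and 17 with library size alone (median 0.21) and 58 and 9 once GC and length trends were removed (median 0.39). Ndufv3 went from 35.8 to 117 CPM on average (1.71 ± 0.09, edgeR adjusted p = 1.1e-10), and Sdhb, the iron-sulfur subunit of succinate dehydrogenase, from 124 to 266 CPM (1.10 ± 0.09, edgeR adjusted p = 1.5e-08). Ratios within a sample do not depend on the scaling. Summed CPM of these nuclear respiratory genes over the summed CPM of the members was 2.603 ± 0.0275 in controls (SD, n = 3), 2.65 ± 0.0538 at 2 days and 5.58 ± 0.138 at 7 days. The same ratio for the mitochondrial messengers was 2.35 ± 0.450, 2.30 ± 0.304 and 7.83 ± 1.501. Both ratios were higher in every 7-day sample than in any other sample.

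The proteins of the cytosolic ribosome, which makes the mitochondrial ones, mostly moved in the same direction as the members at 7 days. Of 77, 46 fell (41.8% of all genes) and 2 rose (40.5%), with a median of -0.29. The other 29 were not called, while 82.3% of all genes were. The list's counts were 75 and 0 with library size alone (median -0.69) and 68 and 1 once GC and length trends were removed (median -0.45). At 2 days 0 of 77 were called by edgeR, against 23.7% of all genes (0 higher and 2 lower at an unadjusted p under 0.05). By limma-voom 0 were called, and 1 was lower by DESeq2. Once GC and length trends were removed 34 were lower, when 2297 of all genes were lower instead of 1333. Rpl13a fell from 92.5 to 37.8 CPM on average (-1.29 ± 0.09, edgeR adjusted p = 3e-09). Summed cytosolic over summed mitochondrial ribosomal protein CPM was 14.9 ± 0.0913 in controls, 14.7 ± 0.274 at 2 days and 18.6 ± 0.687 at 7 days, higher in every 7-day sample (17.9 to 19.3) than in the controls (14.8 to 14.9).

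**Figure D3:**
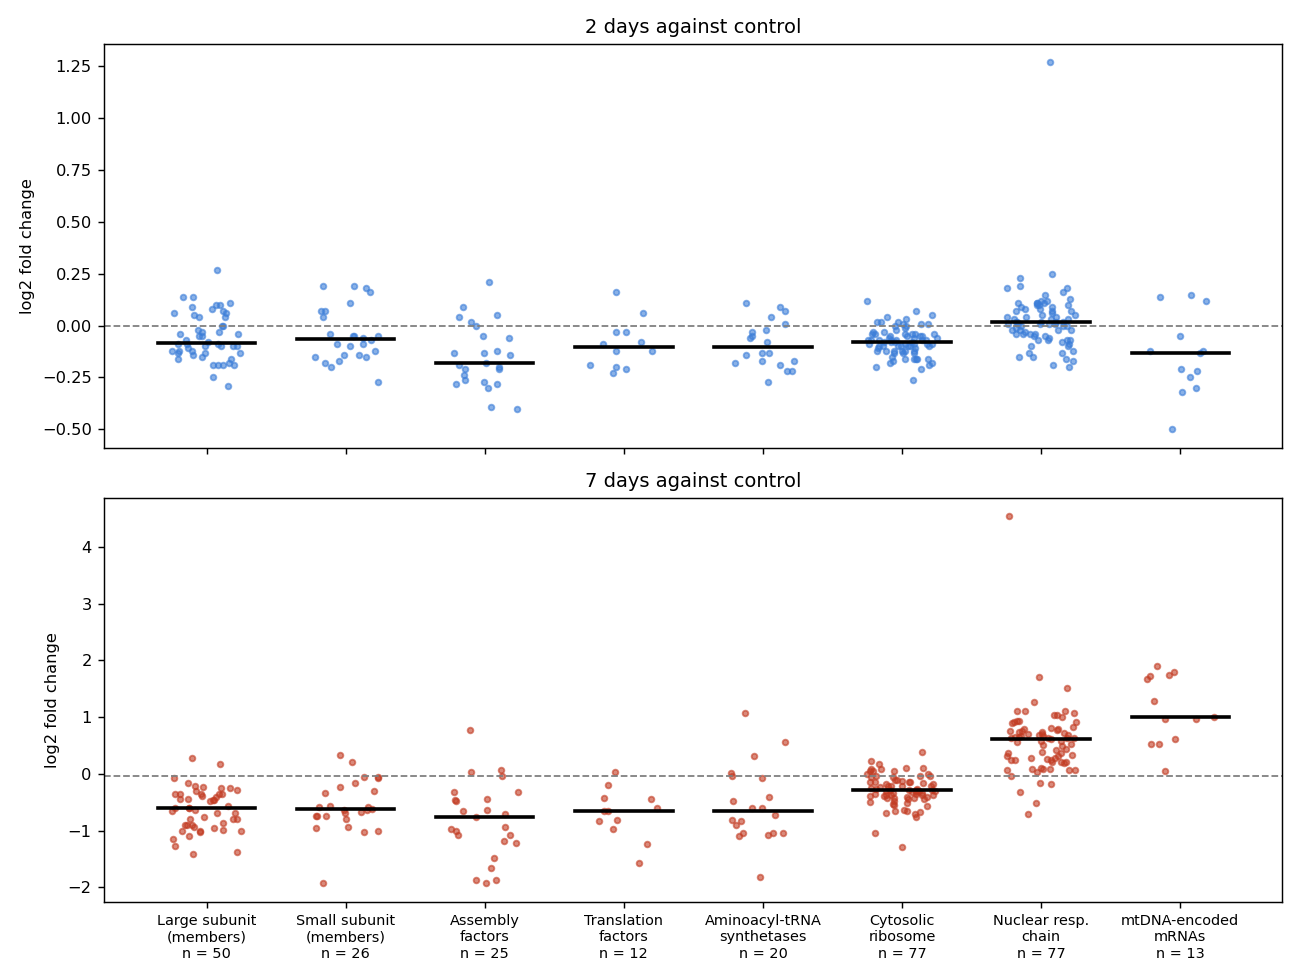
Log2 fold change against control (y axis) of every tested gene of 8 lists at 2 days (top) and 7 days (bottom); points are genes, black bars medians, the dashed line the median of all genes tested. At 7 days the bars of both subunits, the assembly and translation factors and the synthetases lie between -0.76 and -0.60, that of the cytosolic ribosome at -0.29 (-0.69 with library size alone), and those of the nuclear respiratory chain and the mitochondrial messengers at 0.62 and 1.00 (0.21 and 0.60 with library size alone).

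Genes known to regulate mitochondrial gene expression did not share 1 direction. Of 10 tested, 6 fell at 7 days (41.8% of all genes) and 3 rose (40.5%), so both directions were common in the whole table too. The third riser, Yy1, rose by 0.18, less than the shift of all genes with library size alone. Pprc1, a coactivator of the PGC-1 family, read 119 ± 1.76 CPM in controls, 89.0 CPM at 2 days and 34.1 ± 2.25 CPM at 7 days (-1.80 ± 0.09, edgeR adjusted p = 4e-11). Myc fell from 204 ± 15.2 to 85.4 ± 8.03 CPM (-1.25 ± 0.09, edgeR adjusted p = 2.7e-09) and Nrf1 from 56.4 ± 2.31 to 25.6 ± 0.293 CPM (-1.14 ± 0.07, 1.1e-09). Esrra, a nuclear receptor that acts with PGC-1 on respiratory genes, rose from 56.8 ± 3.55 to 154 ± 8.45 CPM (1.43 ± 0.08, edgeR adjusted p = 1.1e-10).

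The 7-day change of the members was also read with and without each motif found. The ETS letters were in 25 of the 69 promoters, the YY1 letters in 12, the E-box in 5 and the NRF1 core in 13. The median log2 fold change was -0.60 with the ETS letters and -0.63 without, -0.64 with the YY1 letters and -0.60 without, -0.60 with the E-box and -0.62 without, and -0.47 with the NRF1 core and -0.62 without. These are medians over the tested members, and a difference by motif was not tested.

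Many members share a promoter region with another gene. A protein-coding gene on the opposite strand starts within 1000 bp, head to head, for 22 of the 78 members (28.2%), against 7.06% of 20858 protein-coding genes of the table and 10.7% of the 12447 tested. The distances between the starts were 26 to 935 bp. Mrpl46 and Mrps11, whose starts lie 30 bp apart, are each other's partner, and both fell at 7 days (-0.80 ± 0.10 and -0.57 ± 0.09, edgeR adjusted p = 1.5e-06 and 2.5e-05). Members with such a partner had a median of -0.60 (22 genes) and those without one -0.62 (55 genes).

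In the 20 distinct pairs with both genes tested, both genes fell at 7 days in 12, the member fell and the partner rose in 3, both rose in 1, and in 4 at least 1 gene was not called. The 19 partners that are no members had a median of -0.77, beside -0.03 for all genes tested. Of all genes, 41.8% were lower and 40.5% higher at this time. Some partners work in the same compartment. Ptcd2, a pentatricopeptide repeat protein of mitochondrial RNA, starts 81 bp from Mrps27 and fell from 50.7 ± 3.03 to 18.4 ± 0.105 CPM (-1.46 ± 0.08, edgeR adjusted p = 1.3e-10). Sars2, the mitochondrial seryl-tRNA synthetase, starts 232 bp from Mrps12 and fell by -0.90 ± 0.15 (3.7e-05). Twnk, the mitochondrial DNA helicase, starts 116 bp from Mrpl43 and fell by -1.08 ± 0.08 (3.2e-09), while Mrpl43 fell by -0.30 ± 0.12 (0.035).

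Other partners went apart from the member. Fau, the gene of a cytosolic ribosomal protein, starts 182 bp from Mrpl49 and rose from 565 ± 29.7 to 773 ± 58.4 CPM (0.45 ± 0.10, edgeR adjusted p = 0.00058), while Mrpl49 fell by -0.86 ± 0.08 (8.3e-08); the rise of Fau is close in size to the shift of all genes with library size alone (-0.43). Eme2, the partner of Mrps34, rose by 0.50 ± 0.16 (edgeR adjusted p = 0.011), also close in size to that shift. Zfp189, the partner of Mrpl50, rose at a low level, from 0.697 to 1.37 CPM on average. Helq, a DNA helicase, starts 29 bp from Mrps18c and fell by -1.45 ± 0.09 (5e-10), whereas Mrps18c was not called. The library kit did not mark strand, and reads where genes overlap cannot be assigned to 1 of them. Among the 65 tested members with under 10% of their exons covered by another protein-coding gene, 56 fell at 7 days and 2 rose. The shares over all genes were 41.8% and 40.5%. The partners in this and the preceding paragraph were picked from the table of pairs after their values were seen.

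**Figure D4:**
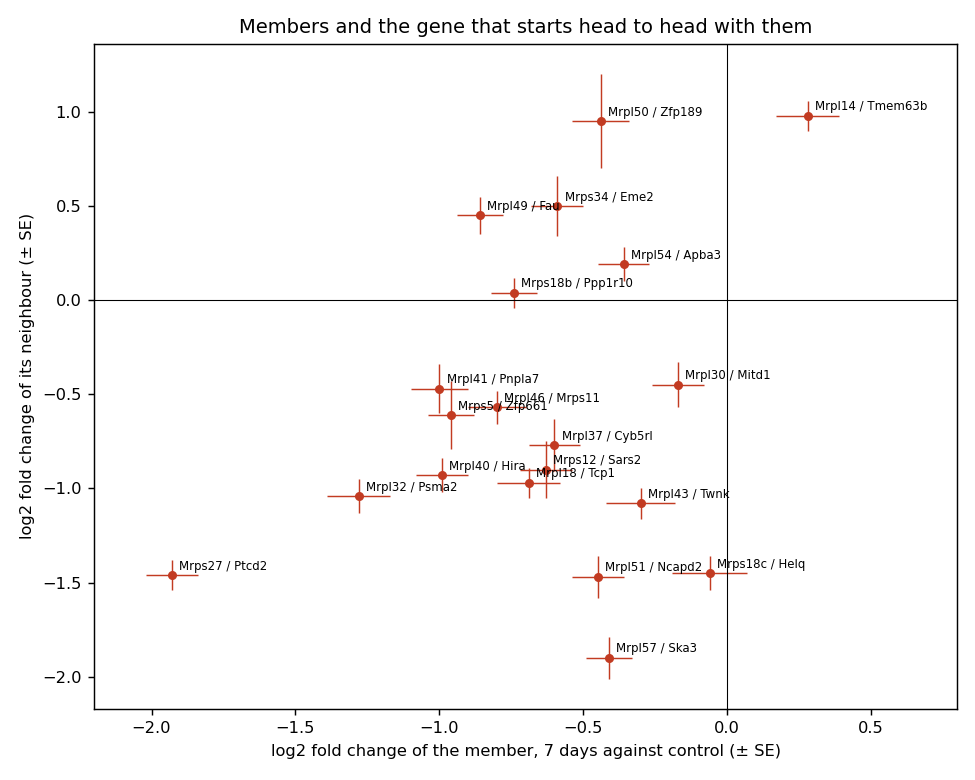
Log2 fold change at 7 days against control of a member (x axis) and of the gene that starts head to head with it (y axis), both ± SE, for 20 pairs. The lower left part holds the 12 pairs in which both fell; Mrpl49 with Fau, Mrpl50 with Zfp189 and Mrps34 with Eme2 lie in the upper left, and Mrpl14 with Tmem63b in the upper right (below 0 for Mrpl14 with library size alone).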

How the data were processed

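The deposited table holds the authors' raw counts, in whole reads per gene, of 9 samples. STAR 2.7.0e, featureCounts and DESeq2 are named, with mm10 and GRCm38, per the submitters' processing notes. Annotation release and strand setting were not given in the sources used here. Per the labels' protocols, poly(A) libraries were made with a kit that does not mark strand. Of 21253 gene IDs 21236 matched GENCODE M21, which gave symbols, positions and transcript lengths; promoters came from RefSeq (GRCm38.p6).

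Counts were filtered with filterByExpr (12535 genes kept), scaled by TMM (factors 1.073 to 1.125 for the 6 control and 2-day libraries and 0.785 to 0.874 for the 7-day libraries) and fitted in edgeR 4.0.16 (R 4.3.3) with glmQLFit and glmQLFTest over all 9 samples in 3 groups. The p-values were two-sided and Benjamini-Hochberg adjusted over all genes. Replicate pairs differed by more than sampling noise (chi-square per degree of freedom 4.24 to 38.3). On simulated counts of 12142 genes for 7 days against control, the code recovered 89.6% of 1.5-fold and 100% of 2-fold changes, and 6.31% of its calls were false. In that simulation 67 genes changed by 1.5-fold, 67 by 2-fold and 66 by 4-fold, up or down at random, with 1 spread for all genes. It held no shift as wide as in the data, where 82.3% of genes were called. Its rates are therefore not those of the real calls.

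Alternatives were other scalings and filters, limma-voom (limma 3.58.1), DESeq2 1.42.0, a fit of only those groups under comparison, a replicate block and leaving out each sample; removal of GC and length trends was added after seeing the data. Members, lists and tests were chosen with earlier results of these data known. Named genes were the 4 largest rises and falls per comparison (adjusted p under 0.05, at least 5 CPM, no overlap), members called against the median, the 3 highest and lowest RPKM, 10 fixed genes and up to 4 per related list. Not every gene so taken is described. Outside this rule, with their values known, were also named Mrps14, Aurkaip1, Mpv17l2, Yy1, mt-Co1, mt-Nd3, Sdhb and the pair of Mrpl46 and Mrps11.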

Additional observations from a re-analysis of the deposited data

How the results depend on the processing

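For 7 days against control, the members lower numbered 61 to 75 over all alternatives beside 66, and their median stayed below 0, at -1.01 with library size alone, -0.71 with upper-quartile factors and -0.74 after removal of GC and length trends. Members higher were 0 with library size alone, 1 with upper-quartile factors and 1 to 3 with single samples left out. Against 2 days the median was -0.97 and -0.67 with those scalings, and members higher were 0 and 0, 1 with no filter, 1 with only those groups, 4 with the DESeq2 Wald test and 0 to 3 with single samples left out. At 2 days the members lower were 6 with the block, 23 after removal of GC and length trends and 0 to 4 with single samples left out; members higher were 0 after that removal and 0 to 1 with single samples left out. All genes lower at 2 days numbered 2297 after that removal and 809 without control 2, beside 1333.

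Library size alone turned Mrpl14 to -0.13, Mrpl24 to -0.22, Mrps21 to -0.07 and Mrps31 to -0.20 at 7 days against control, and Mrpl14 to -0.11, Mrpl24 to -0.21 and Mrps31 to -0.29 against 2 days. Removal of GC and length trends turned Mrpl14 to -0.02 and Mrps21 to -0.07, and ended both calls of Mrpl17 (0.30 at 2 days, -0.11 at 7 days). The cause was not tested.

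Same-numbered samples of different groups correlated from -0.13 to 0.48 in their deviations from the group means. Numbers 1 and 3 reached 0.332 and 0.48 between control and 7 days and number 2 only -0.00504, and not every sample correlated best with its own number. Since not every pair exceeded 0.1 and the labels name no shared source, the numbers were not taken to pair the samples. With the replicate block the calls over all genes at 2 days were 2076 higher and 1963 lower instead of 1636 and 1333; 4 members were higher and 68 lower at 7 days, and 3 and 66 against 2 days. Mrpl53 had too few counts to test, and with 3 technical replicates a group small changes at 2 days may be missed.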
